A study of Sus scrofa with 27 samples.

Results

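The genes described here are the pig subunits of nuclear factor kappa B (NF-kB) and the inhibitors that NF-kB itself switches on, followed in lung tissue during 12h of ex vivo lung perfusion (EVLP). Members were chosen by name: NFKB1, NFKB2, REL, RELA and RELB for the subunits, and NFKBIA, NFKBIE, NFKBIZ, TNFAIP3 and BIRC3 for the inhibitors and regulators. Of the 10 names, 9 had a row of their own among the 31908 gene rows of the count table, and all 9 reached the minimum of 10 counts in a library. BIRC3, which codes for the ubiquitin ligase cIAP2, had none under its name. Its RefSeq model (chromosome 9, 33003570 to 33020252) lies inside the Ensembl row named BIRC2 (ENSSSCG00000027529, chromosome 9, 33003276 to 33063420), which also covers the RefSeq model of BIRC2, so reads of these 2 genes share 1 row and BIRC3 itself has no value here.

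Lungs came from 9 Large-White pigs in a model of donation after the heart had stopped, and went through a period of cold ischemia before perfusion with Steen solution that held methylprednisolone, cefuroxime and heparin. In the Gold Standard (GS) group, 5 pigs, part of the solution was exchanged at intervals. In the Pediatric Dialysis (PD) group, 4 pigs, the circuit carried a dialyser with a small pediatric membrane instead. Each lung was biopsied at 0h (after cold ischemia, before perfusion), 6h and 12h, giving 15 GS and 12 PD libraries of bulk RNA-seq, so the replicate is the pig and each pig is its own reference. All groups share the donor model, the corticoid in the solution and the ischemia, no unperfused lung of 6h or 12h is among the samples, and no age is given in the labels. RNA was extracted by either of a pair of routes, and the labels do not say which library had which.

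NF-kB is a dimer of Rel-family proteins that waits in the cytoplasm bound to an inhibitor of the IkB family. Cytokines, microbial products or stress activate the IKK kinases, which mark IkB for destruction, and the freed dimer enters the nucleus and turns on inflammatory genes. Among those genes are its own inhibitors and several of its subunits, and this loop shapes how long the response lasts. A second, slower route processes the NFKB2 precursor and acts through RELB. In the lung the pathway is known from ischemia-reperfusion and graft injury, in epithelium, endothelium and macrophages alike.

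The gene rows are given in the pig assembly Sscrofa11.1 with Ensembl identifiers, and the DNA just upstream was read from that assembly. Windows of 8 members are reported, of which 5 carry a match to the kappa B consensus. The kappa B consensus, the sequence class that NF-kB dimers bind, was searched on both strands, overlapping matches included, in the 300 bases before each row's start. At least 1 match lay in 62.5% of these 8 windows and in 13.6% of the 20275 windows of protein-coding genes in the same table. A match is a description of letters and not a shown binding site. NFKB1, NFKB2 and NFKBIZ had none in this window, whose place depends on the annotated start: the Ensembl and RefSeq starts differ by 27764 bases for NFKB1, 21359 for NFKBIZ, 2746 for NFKBIE, 900 for RELA, 408 for NFKB2 and 277 for REL. The stretches shown for NFKBIE and REL lie before the Ensembl start but inside the longer RefSeq model. The window of NFKBIA (chr7:64507716-64508015, plus strand) is shown whole, since this inhibitor was called at 12h in both groups, with the match in capitals, 5′ to 3′. The first base of the match lies 90 bases before the start of NFKBIA.
NFKBIA: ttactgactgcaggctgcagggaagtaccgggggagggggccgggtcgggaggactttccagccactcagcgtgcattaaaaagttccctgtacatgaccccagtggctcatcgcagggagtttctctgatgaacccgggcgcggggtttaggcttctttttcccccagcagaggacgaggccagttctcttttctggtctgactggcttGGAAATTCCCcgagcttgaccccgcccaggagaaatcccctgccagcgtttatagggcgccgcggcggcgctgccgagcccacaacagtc

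Among the 8 windows, those of REL and NFKBIE held 2 matches each, and 2.52% of all windows held at least 2. For these, and for RELB and RELA with 1 match each, only the 30 bases around a match are shown, again with the matching letters in capitals. In REL the matches are 1 letter apart on opposite strands and together cover 11 bases, starting 35 bases before the Ensembl start. In NFKBIE the matches start 129 and 88 bases before it, and in RELB and RELA 76 and 96 bases before it.
REL (chr3:80911972-80912001, minus strand): cgtcagctagGGGAAATTCCCctcccgccg
NFKBIE (chr7:39263449-39263478, minus strand): agtcaggaccGGGGAACCCCtgattcggag
NFKBIE (chr7:39263408-39263437, minus strand): ggcggggtaaGGGGGATTCCgaagggcggg
RELB (chr6:51444550-51444579, plus strand): gtgatgcgtgGGGGTTTTCCcattccccta
RELA (chr2:6593863-6593892, plus strand): atcggcgggaGGGGGCCCCCgaaatcccct

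Levels are given as CPM, counts scaled to a common library total after TMM normalisation, and a gene was called changed against 0h at an adjusted p under 0.05 with at least a 2-fold change in edgeR's quasi-likelihood test with the pig as a block. CPM is not divided by gene length, so levels are compared between samples and never between genes. Totals were 26335584 to 67522703 counts in GS and 14650700 to 21820935 in PD without overlap, so depth or batch and group cannot be told apart. Among GS, the libraries of pigs 9 and 17 held 26335584 to 41802541 counts and those of pigs 44, 55 and 77 held 51708598 to 67522703. The 12h library of PD pig 2 stood apart, with a correlation of 0.86 to the other libraries of its group and time and 1.65% mitochondrial counts, and the 0h library of PD pig 4 correlated at 0.907. All other libraries correlated at 0.92 or above. Against the mean library, genes with high GC content stood log2 1.91 above those with low GC content in the 12h library of PD pig 2. The 12h libraries of PD pigs 3, 4 and 5 were at -1.22, -1.92 and -0.213. Surfactant and other alveolar type 2 markers were abundant, with a summed level at 0h of 6520 to 9240 CPM in GS and 26000 to 77100 CPM in PD, although over the 5 markers tested the median log2 difference was 0.64, with 1 called higher and 1 lower in PD. The 4 pan-leukocyte markers in the table summed at 0h to 1250 to 1790 CPM over the GS pigs and to 1230 to 1720 CPM over the PD pigs, and 0 of the 4 was called by edgeR in either group at 6h or 12h against 0h. In bulk tissue, fewer cells of a type and less RNA per cell cannot be told apart.

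All 9 members had a positive fitted change at 6h and at 12h in both groups, and every call was an increase. In GS, 4 members were called at 6h and 4 at 12h (RELB, NFKBIA, NFKBIE and TNFAIP3 each time), where 5.5% and 6.99% of the 18594 genes tested were called higher. With the adjusted p alone and no fold limit, NFKB1, NFKB2 and RELA passed as well, which made 7 of 9 at each time against 13.6% and 17.6% of all genes. At 6h, NFKB1, NFKB2, RELB and TNFAIP3 missed it without pig 44 (edgeR adjusted p = 0.106, 0.104, 0.0689 and 0.0994). The same members missed it at 6h without pig 77 (adjusted p = 0.0833, 0.0885, 0.0532 and 0.1). At 12h, NFKB1, NFKB2 and RELB missed it without pig 44 (adjusted p = 0.145, 0.0859 and 0.0508). In PD, 1 member (TNFAIP3) was called at 6h and 5 (NFKB2, REL, RELB, NFKBIA and TNFAIP3) at 12h, where 0.135% and 3.22% of the 15545 genes tested were called higher. The median fitted log2 fold change over the members was 0.98 at both times in GS, and 1.07 and then 1.69 in PD. Over all genes tested the medians lay between -0.08 and -0.02, and 45.7% to 48.4% of genes had a positive fitted change.

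**Figure D1:**
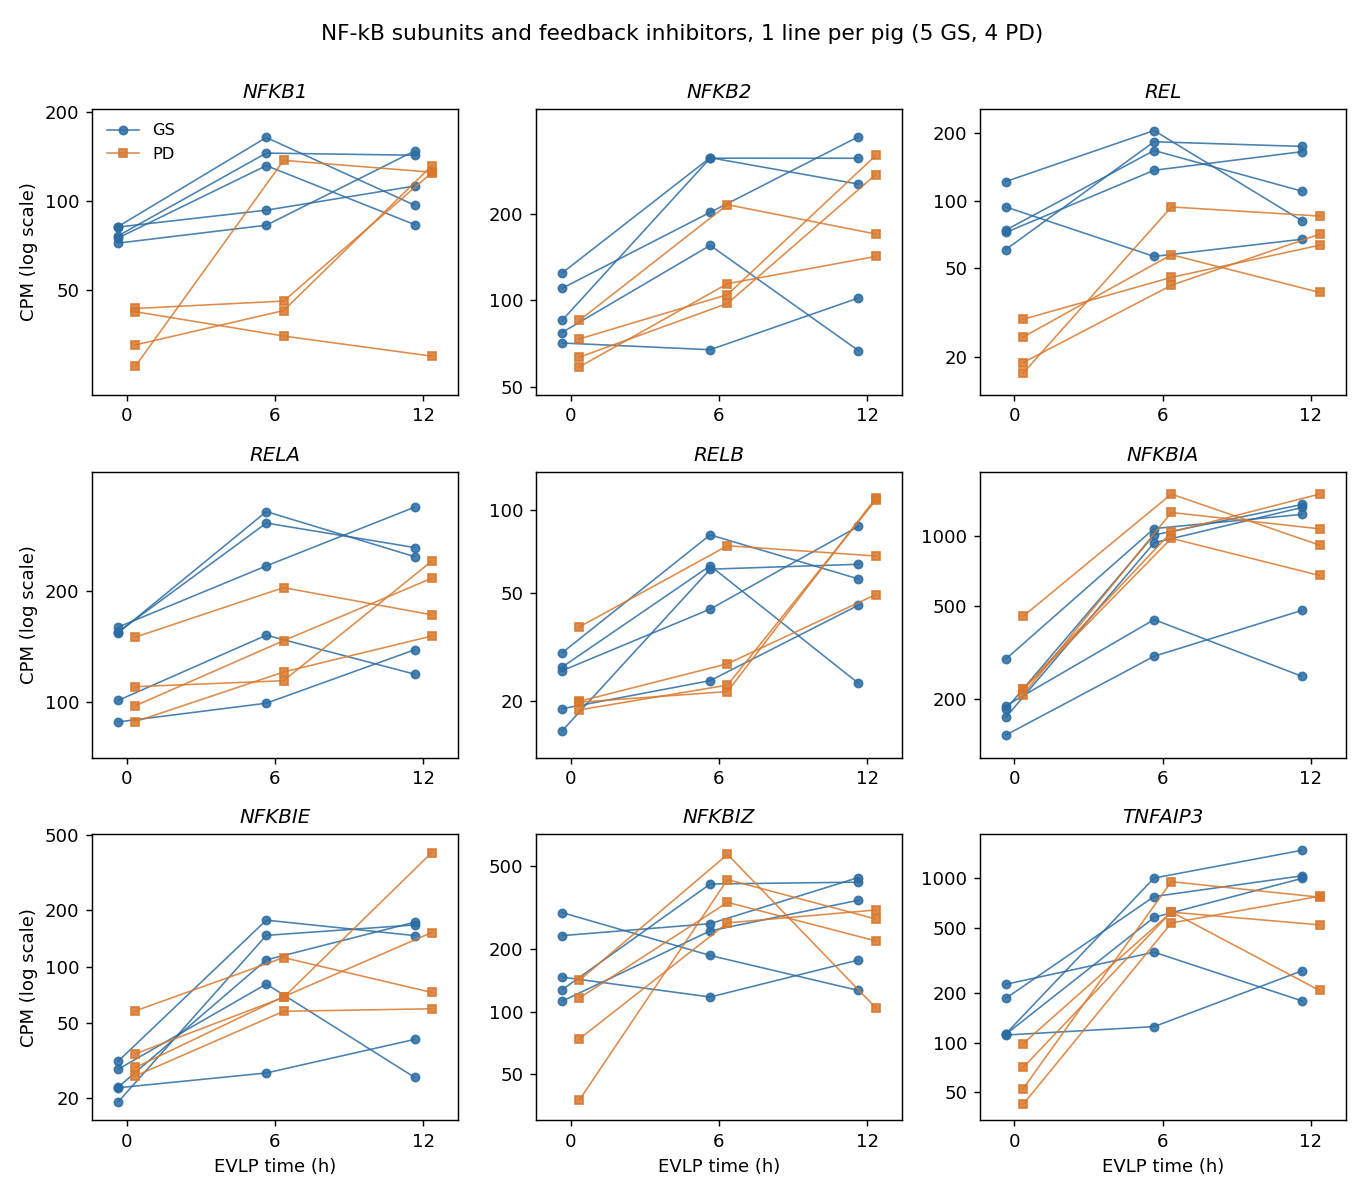
Level of each member in CPM (log axis) against EVLP time in hours, with 1 line per pig, circles for the 5 GS pigs and squares for the 4 PD pigs. TNFAIP3 lay between 42.1 and 98.7 CPM in PD at 0h and between 534 and 953 CPM at 6h. In the NFKBIA and TNFAIP3 panels pigs 9 and 17 are the lowest of the GS lines at 6h and 12h.

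NFKBIA codes for IkB alpha, the inhibitor that is destroyed and resynthesised in each round of NF-kB activation. Its row (ENSSSCG00000001952, chromosome 7, 64508016 to 64558057, plus strand) spans 50042 bases against 2636 in RefSeq, and a RefSeq non-coding gene on the opposite strand lies inside it. The strand setting of the counting is not stated, so reads of that transcript may be part of the value. In GS, NFKBIA was at 186, 139, 166, 180 and 296 CPM at 0h in pigs 9, 17, 44, 55 and 77. At 6h it was at 438, 304.5, 939, 1015 and 1082 CPM, and at 12h at 249, 481, 1335, 1375 and 1246 CPM. Every GS pig rose at both times, and the 6h levels lay above all 0h levels, while at 12h pig 9 had fallen back into the 0h range. The fitted log2 fold change was 1.77 ± 0.29 (SE) at 6h (edgeR adjusted p = 0.00129) and 2.01 ± 0.30 at 12h (adjusted p = 4e-04).

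In PD pigs 2, 3, 4 and 5, NFKBIA was at 208, 219, 453 and 220 CPM at 0h. It reached 1269, 982, 1524 and 1045 CPM at 6h, and 1079, 679, 918 and 1524 CPM at 12h. The levels at 6h and 12h were all above those at 0h. The fit gave 2.16 ± 0.38 at 6h, which missed the threshold (edgeR adjusted p = 0.0593), and 1.96 ± 0.38 at 12h, which passed (adjusted p = 0.0218). The 6h change passed in DESeq2 (adjusted p = 2.04e-06). It also passed in edgeR with no filter on low counts, no replicate block, only the 2 time points or all 27 libraries in one fit (adjusted p = 0.0115, 0.0252, 0.013 and 0.00207). Without pig 2, 3, 4 or 5 it did not pass (edgeR adjusted p = 0.0528, 0.516, 0.122 and 0.743). NFKBIA thus rose by 4.03-fold in GS and 3.9-fold in PD at 12h on the fitted scale.

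TNFAIP3 codes for A20, a ubiquitin-editing enzyme that shuts off signaling upstream of IKK (ENSSSCG00000004154, chromosome 1, 26473938 to 26489822, minus strand). It gave the largest fitted change of the members in PD at both times. In PD pigs 2, 3, 4 and 5 the level went from 70.6, 98.7, 52.5 and 42.1 CPM at 0h to 624, 622, 953 and 534 CPM at 6h. At 12h it was at 208, 521, 767 and 777 CPM. No level at 6h or 12h overlapped those at 0h, and 3 of 4 pigs had a lower level at 12h than at 6h. The fitted increase was 10.2-fold at 6h (log2 3.35 ± 0.47, edgeR adjusted p = 0.0222) and 8.21-fold at 12h (log2 3.04 ± 0.48, adjusted p = 0.0161). The call at 6h was lost without PD pig 3, 4 or 5 (adjusted p = 0.186, 0.114 and 0.342), at log2 changes of 3.59, 3.13 and 3.26.

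In GS pigs 9, 17, 44, 55 and 77, TNFAIP3 was at 226, 111, 112, 113 and 186 CPM at 0h. The values at 6h were 355, 125, 578, 1003 and 774 CPM, and those at 12h were 179, 274, 999, 1481 and 1035 CPM. Pigs 44, 55 and 77 exceeded every 0h level at both times, whereas pig 17 at 6h and pig 9 at 12h lay within the 0h range. The fitted increase was 2.84-fold at 6h (log2 1.50 ± 0.45, edgeR adjusted p = 0.0251) and 3.92-fold at 12h (log2 1.97 ± 0.47, adjusted p = 0.00564). The 6h call was lost without pig 44, 55 or 77 (adjusted p = 0.0994, 0.0831 and 0.1), at log2 changes of 1.32, 1.18 and 1.37.

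NFKBIE codes for IkB epsilon, a slower inhibitor of the same family (ENSSSCG00000001703, chromosome 7, 39255075 to 39263339, minus strand). In GS it stood at 28.5, 22.8, 19.1, 22.9 and 31.5 CPM at 0h in pigs 9, 17, 44, 55 and 77. It was at 81.0, 27.3, 147, 109 and 177 CPM at 6h, and at 25.9, 41.1, 167, 172.5 and 146.5 CPM at 12h. Pigs 44, 55 and 77 rose by a wide margin, and pig 17 at 6h and pig 9 at 12h again lay within the 0h range. The fitted log2 fold change was 1.80 ± 0.41 at 6h (edgeR adjusted p = 0.00713) and 1.77 ± 0.42 at 12h (adjusted p = 0.00574).

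In PD, NFKBIE was at 34.5, 26.3, 58.3 and 29.2 CPM at 0h and at 68.8, 58.0, 112 and 69.3 CPM at 6h. The 4 pigs rose by much the same factor at 6h, from 1.92-fold upward, with a mean log2 change of 1.08 ± 0.14 (SD, n = 4 pigs). At 12h the values were 405, 59.8, 73.0 and 152 CPM, and the highest was in the library of pig 2 that stood apart. The fit missed the threshold at 6h (log2 1.07 ± 0.50, edgeR adjusted p = 0.54) and at 12h (log2 2.01 ± 0.54, adjusted p = 0.0528). Without pig 2 the 12h change was smaller and passed the test (log2 1.33, adjusted p = 0.0411). Without pig 4 it was larger and passed as well (log2 2.52, edgeR adjusted p = 0.0452). It also passed in DESeq2 (adjusted p = 0.00159), and in edgeR with no filter on low counts, no replicate block or all 27 libraries in one fit (adjusted p = 0.0226, 0.0244 and 0.0107). It did not pass without pig 3, without pig 5 or with only the 2 time points (edgeR adjusted p = 0.221, 0.362 and 0.202).

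NFKBIZ codes for IkB zeta, a nuclear member of the family that acts as a co-activator of a subset of secondary genes such as IL6 (ENSSSCG00000011951, chromosome 13, 157261418 to 157294478, minus strand). It was not called in either group at the settings used throughout. In GS its level was 300, 146.5, 112, 127 and 232 CPM at 0h in pigs 9, 17, 44, 55 and 77, then 186, 117.5, 244.5, 411 and 265 CPM at 6h, and 126, 177, 344, 420 and 442 CPM at 12h. Pig 9 had the highest 0h level and went down at both times, and pig 17 went down at 6h. In PD pigs 2, 3, 4 and 5 the level was 141, 116, 73.8 and 37.5 CPM at 0h and 571, 336, 267 and 432 CPM at 6h, above every 0h value. At 12h it was 104, 219, 308 and 279 CPM, and 3 of 4 pigs were lower than at 6h. The fitted log2 fold changes were 0.29 ± 0.34 and 0.58 ± 0.35 in GS and 2.16 ± 0.51 and 1.40 ± 0.51 in PD, with edgeR adjusted p = 0.565, 0.207, 0.145 and 0.121 in that order. The PD change at 6h passed in DESeq2 (adjusted p = 0.00153), and in edgeR with no filter on low counts, no replicate block, only the 2 time points or all 27 libraries in one fit (adjusted p = 0.0408, 0.0479, 0.019 and 0.0181). The GS change at 12h passed without pig 9 (log2 1.08, edgeR adjusted p = 0.0101), and the PD change at 12h without pig 2 (log2 1.86, adjusted p = 0.0184).

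RELA (p65) and NFKB1 (p105, the precursor of p50) form the classical dimer. RELA (ENSSSCG00000012981, chromosome 2, 6593969 to 6603471, plus strand) ranged from 88.3 to 160 CPM in GS at 0h (median 154), from 99.3 to 330 at 6h (median 235) and from 119 to 339 at 12h (median 249). Every GS pig rose at both times, but the groups of levels overlapped. The fitted changes of 1.6-fold at 6h and 1.58-fold at 12h passed the adjusted p (edgeR, 0.00731 and 0.00561) and stayed under the 2-fold limit. In PD, RELA was at 97.7, 88.5, 150 and 110 CPM at 0h, at 147, 121, 205 and 114 CPM at 6h, and at 217, 151, 173 and 242 CPM at 12h. The 12h levels lay above those at 0h in all 4 pigs, with fitted changes of 1.31-fold at 6h and 1.78-fold at 12h that were not called (edgeR adjusted p = 0.673 and 0.133).

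NFKB1 (ENSSSCG00000030957, chromosome 8, 118390637 to 118506691, minus strand) had a narrow range in GS at 0h, 71.9 to 81.8 CPM. It was at 132, 93.0, 145, 82.7 and 164 CPM at 6h and at 83.1, 112, 143, 147.5 and 96.7 CPM at 12h in pigs 9, 17, 44, 55 and 77, and each of these lay above every GS level at 0h. The increase was modest, 1.56-fold at 6h and 1.46-fold at 12h (edgeR adjusted p = 0.0256 and 0.0371). The pass at 6h was lost without pig 9, 44 or 77 (adjusted p = 0.0508, 0.106 and 0.0833, log2 0.62, 0.58 and 0.55). The pass at 12h was lost without pig 17, 44 or 55 (adjusted p = 0.0659, 0.145 and 0.108, log2 0.59, 0.47 and 0.42). Both were lost in the fit of all 27 libraries (adjusted p = 0.246 and 0.255, log2 0.65 and 0.58). In PD, NFKB1 was at 42.1, 43.2, 27.5 and 32.5 CPM at 0h, at 34.8, 45.8, 137 and 42.5 CPM at 6h, and at 29.8, 125, 125 and 132 CPM at 12h. Pig 4 was high from 6h on, pigs 3 and 5 only at 12h, and pig 2 at neither time. The fitted log2 changes were 0.59 ± 0.50 and 1.30 ± 0.51 (edgeR adjusted p = 0.69 and 0.143), and without pig 2 the 12h change was 1.86 and passed (adjusted p = 0.0179).

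REL codes for c-Rel, the subunit best known from lymphoid and myeloid cells (ENSSSCG00000008388, chromosome 3, 80870860 to 80911956, minus strand). In GS it was at 122, 93.6, 72.0, 60.4 and 73.8 CPM at 0h, at 205.5, 56.2, 136.5, 183 and 167 CPM at 6h, and at 81.0, 67.2, 165, 174.5 and 110 CPM at 12h in pigs 9, 17, 44, 55 and 77. Pig 17 went down at both times and pig 9 at 12h, and the fitted changes were not called (log2 0.70 ± 0.31 and 0.39 ± 0.31, edgeR adjusted p = 0.107 and 0.331). In PD, REL rose in all 4 pigs at both times, from 24.5, 29.5, 16.9 and 18.9 CPM at 0h to 57.2, 45.3, 93.6 and 41.8 CPM at 6h and 38.9, 63.1, 85.2 and 70.7 CPM at 12h, with no overlap between 0h and either later time. The fit gave log2 1.35 ± 0.38 at 6h (edgeR adjusted p = 0.244) and 1.48 ± 0.38 at 12h (adjusted p = 0.0437). The 12h call was lost without PD pig 3, 4 or 5 (log2 1.62, 1.28 and 1.31, edgeR adjusted p = 0.222, 0.122 and 0.347), and without GS pig 17 REL was called in GS at 6h (log2 1.07, adjusted p = 0.0172).

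NFKB2 (p100, the precursor of p52) and RELB form the dimer of the slower route. NFKB2 (ENSSSCG00000010580, chromosome 14, 113406004 to 113414173, plus strand) was at 77.3, 71.1, 85.1, 110 and 124 CPM in GS at 0h, at 155, 67.3, 312, 202 and 313 CPM at 6h, and at 66.9, 102, 312, 371 and 254 CPM at 12h. Pigs 44, 55 and 77 held the 3 highest levels at each later time. The fitted changes, 1.98-fold and 1.97-fold, passed the adjusted p (edgeR, 0.023 and 0.0178) and fell just short of the 2-fold limit. They missed the adjusted p without pig 44 (0.104 and 0.0859, log2 0.79 at both times). The same held without pig 77 (0.0885 and 0.0502, log2 0.90 and 0.98), and at 12h without pig 55 (0.0906, log2 0.77). DESeq2 called NFKB2 at both times (log2 1.016 and 1.035, adjusted p = 0.00379 and 0.00229). In PD, NFKB2 went from 73.4, 58.7, 85.1 and 63.4 CPM to 105, 114, 215 and 97.5 CPM at 6h and 319, 142, 170 and 274 CPM at 12h, without overlap with 0h. Its increase was 1.87-fold at 6h (edgeR adjusted p = 0.475) and 3.23-fold at 12h (adjusted p = 0.0304).

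RELB (ENSSSCG00000038879, chromosome 6, 51444636 to 51480320, plus strand) was at 26.7, 18.8, 15.6, 25.9 and 30.1 CPM in GS at 0h. It reached 62.7, 23.8, 61.0, 43.6 and 81.4 CPM at 6h, and 23.3, 45.0, 63.5, 87.4 and 56.2 CPM at 12h. The fitted increase was 2.23-fold at 6h and 2.27-fold at 12h (edgeR adjusted p = 0.0134 and 0.0089). Both calls were lost without pig 44 (log2 0.99 and 1.001, adjusted p = 0.0689 and 0.0508), and the one at 6h also without pig 77 (log2 1.09, adjusted p = 0.0532). In PD, RELB was at 18.6, 20.0, 37.5 and 19.9 CPM at 0h, at 23.0, 27.5, 74.3 and 21.7 CPM at 6h, and at 109, 49.2, 68.1 and 111 CPM at 12h. Only pig 4 was well above its 0h level at 6h, whereas all 4 were above every 0h level at 12h. The fit gave 1.43-fold at 6h (edgeR adjusted p = 0.677) and 3.75-fold at 12h (adjusted p = 0.0329).

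**Figure D2:**
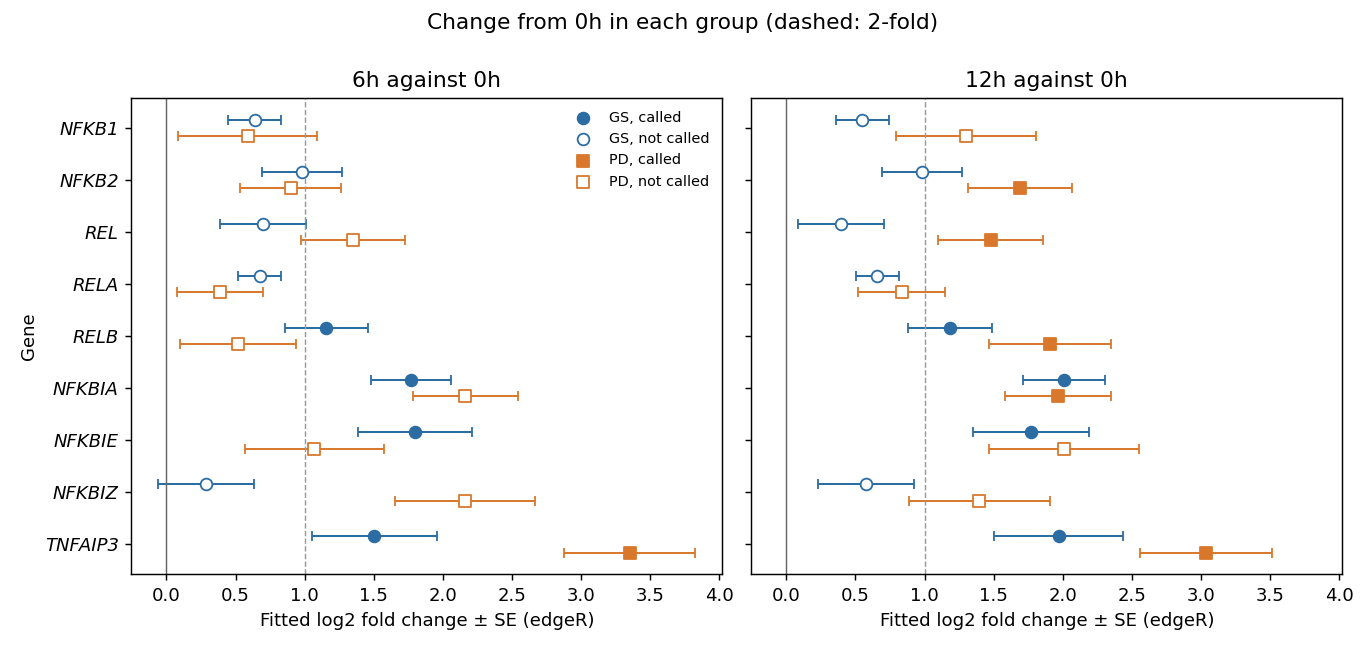
Fitted log2 fold change (edgeR) of each member against 0h with its SE as bars, at 6h on the left and 12h on the right, circles for GS and squares for PD, filled where called. Fits lie to the right of 0 throughout, the dashed line marks a 2-fold change, and TNFAIP3 in PD is farthest right at both times, at 3.35 and 3.04.

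Calls in PD depended on the pigs included. Of the 5 calls at 12h, 0 remained without pig 3 or without pig 5, when 0 of all genes tested was called as well. The fitted log2 changes of these 5 members were then 1.62 to 3.29 and 1.31 to 2.60, against 1.48 to 3.04 with all 4 pigs. Without pig 2, 8 members were called. Calls over all genes rose in parallel, from 930 of 15545 to 3826 of 15703. Leaving out only the 12h library of pig 2 also gave 8 calls, with 4161 of 15875 genes called, and leaving out the 0h library of pig 4 gave 2, with 457 of 15767. In GS, leaving out pig 44 or pig 77 left 2 calls at 6h, with 1318 and 1563 of all genes called against 2057 with all 5 pigs.

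The pigs of a group did not respond alike. The median log2 change over the 9 members at 12h was -0.20 in GS pig 9, with 3 of 9 members above their 0h level, and 0.65 in pig 17, against 1.87, 1.75 and 0.93 in pigs 44, 55 and 77. At 6h the same medians were 0.81 and 0.17 in pigs 9 and 17 and 1.88, 1.6 and 1.33 in the other 3. From 6h to 12h all 9 members fell in pig 9 and all 9 rose in pig 17. PD pigs 2, 3, 4 and 5 had medians of 0.997, 0.96, 1.75 and 1.147 at 6h and 1.56, 1.28, 1.02 and 2.38 at 12h. Pigs 9 and 17 are also the GS pigs with the lowest library totals. Without them, an alternative added after these values had been seen, 7 members were called in GS at each time (2760 and 3585 of 18919 genes, against 2057 and 2911 of 18594 with all pigs), and TNFAIP3 had log2 changes of 2.50 and 3.09. In these 2 pigs high-GC genes also stood lower against low-GC genes, by -0.64 to 0.24 on the log2 scale against 0.42 to 1.16 in the other GS pigs. The same measure varied more among PD libraries. It was -0.58, -1.79 and 1.91 at 0h, 6h and 12h in pig 2, and 0.596, -1.22 and -1.92 in pig 4. PD pigs 3 and 5 lay between -1.22 and 0.193. The part of depth and base composition in the result was not tested.

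**Figure D3:**
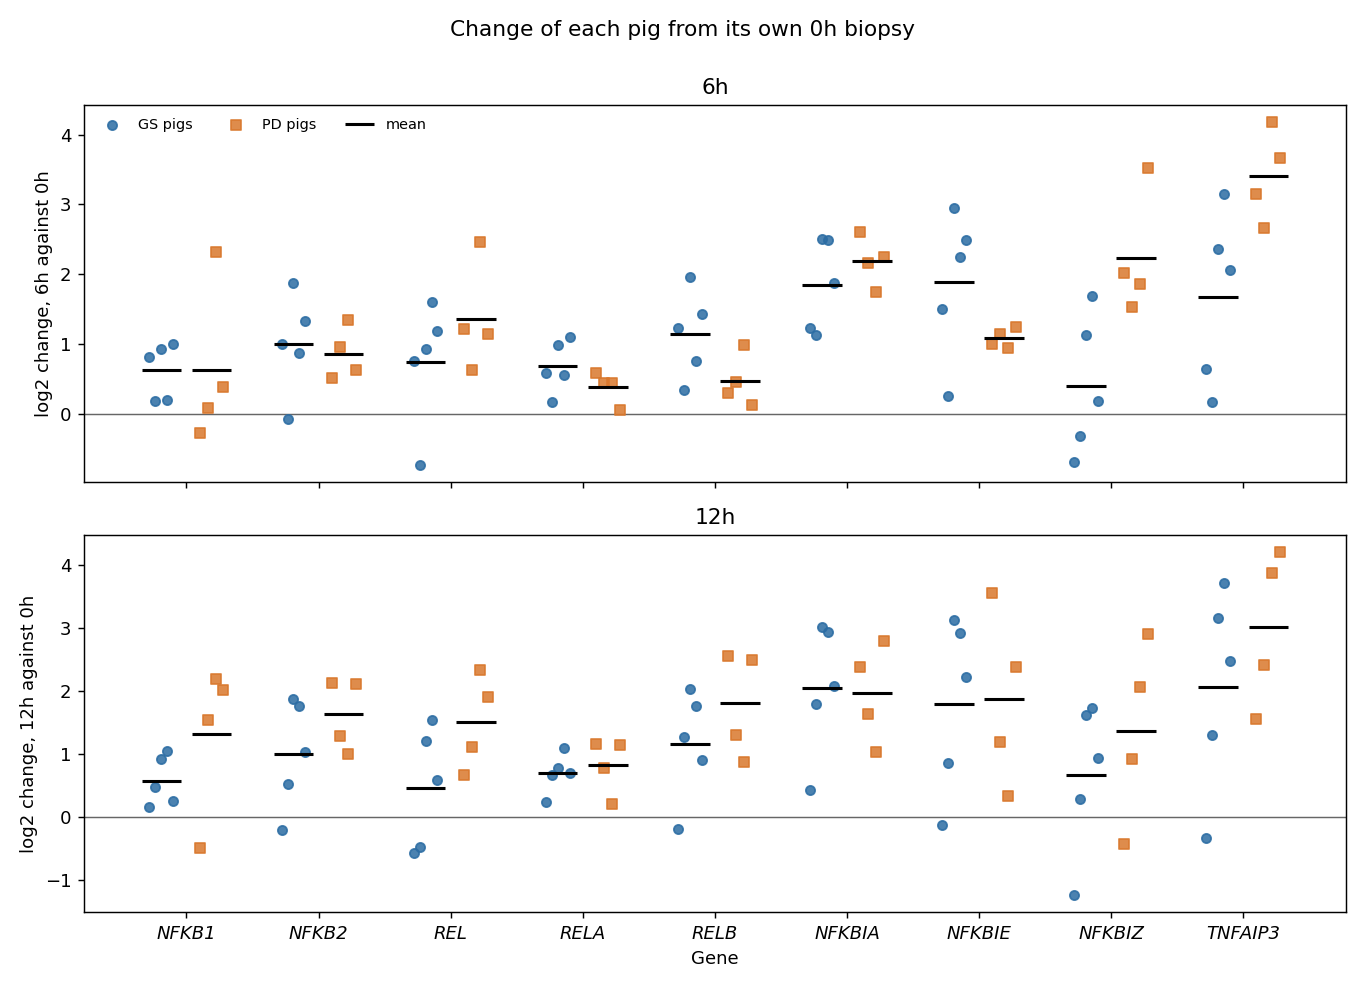
Log2 change of each pig from its own 0h biopsy for each member, at 6h (top) and 12h (bottom), circles for 5 GS pigs, squares for 4 PD pigs and a black bar for the group mean. For TNFAIP3 at 6h the PD pigs lie between 2.66 and 4.18 and the GS pigs between 0.17 and 3.15, so the groups overlap.

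The members varied together across GS libraries. With levels centred on the mean of each group and time, the 36 pairs of members had a median Pearson r of 0.786 over the 15 GS libraries (0.264 for NFKB1 with NFKBIZ to 0.967 for NFKB2 with NFKBIE). In the 12 PD libraries the median was 0.14, from -0.524 for NFKBIE with TNFAIP3 to 0.932 for NFKB2 with RELB. Without the 12h library of PD pig 2 it was 0.434 over 11 libraries, and NFKBIE with TNFAIP3 was at 0.215. These are descriptions over libraries that share pigs, depth and base composition, and no test was made. Pairs of other genes are not given beside them, so the values are not shown to be particular to the members.

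No member was called between 12h and 6h in edgeR, in GS or in PD, where 0% of all genes were called in either group. In GS no member had an unadjusted p under 0.05, and in PD only RELB had (log2 1.39 ± 0.44, edgeR adjusted p = 0.402), as had 1562 of all 15545 genes. DESeq2 called 0 members as well, but 224 of all 15545 genes in PD and 2 in GS. In PD the fitted change from 6h to 12h was below 0 for NFKBIA, NFKBIZ and TNFAIP3 (log2 -0.20, -0.76 and -0.32) and above 0 for the other 6.

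Whether dialysis altered the response was asked by comparing the change from 0h between PD and GS. In the interaction fit over all 27 libraries (edgeR) 0 members were called at 6h and 0 at 12h, as were 0% of the 17884 genes at each time, and DESeq2 called 0 members, with 7 and 15 of all genes. Without PD pig 2, edgeR called 254 genes at 6h and 153 at 12h out of 18568, and 0 members at either time. Unadjusted p under 0.05 was reached by NFKBIZ and TNFAIP3 at 6h and by REL at 12h, and by 1046 and 1069 of all 17884 genes at these times. The fitted change of NFKBIZ was larger in PD by a log2 difference of 1.86 ± 0.62 at 6h (edgeR adjusted p = 0.783) and TNFAIP3 by 1.83 ± 0.67 (adjusted p = 0.783). For REL the difference was 1.05 ± 0.50 at 12h (edgeR adjusted p = 0.83). The other differences lay between log2 -0.73 and 0.63 at 6h and between -0.07 and 1.04 at 12h. In the 6h change, the lowest-GC genes, as defined for 0h below, had a median difference of 0.365, against -0.343 for the highest-GC genes. At 12h these medians were 0.14 and -0.192. Low-GC NFKBIZ, TNFAIP3 and REL had positive differences at 6h, and high-GC RELA, RELB, NFKBIE and NFKB2 had negative ones. NFKB1 (-0.07) and NFKBIA (0.39) went the other way. The part of base composition in these differences was not tested.

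The exact two-sided Wilcoxon test of the per-pig changes on the rlog scale, the kind of test the study used for this question, cannot go below p = 0.0159 with 4 against 5 pigs. It gave 0 members under 0.05 at either time, where 6.04% of all genes at 6h and 4.04% at 12h had an unadjusted p under 0.05. The lowest members were NFKBIZ at 6h (exact p = 0.0635) and TNFAIP3 at 6h (exact p = 0.111). An exact permutation of the mean changes, whose smallest p is 0.00794, gave p = 0.0397 for NFKBIZ and 0.0714 for TNFAIP3 at 6h. Adjusted over all genes, the smallest Wilcoxon p of any gene was 0.501 at 6h and 0.711 at 12h. No member had changes without overlap between PD and GS. Without GS pigs 9 and 17 the 6h differences were 1.16 for NFKBIZ and 0.86 for TNFAIP3 (edgeR adjusted p = 0.888 for both).

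The groups already differed before perfusion. At 0h, 3 of 9 members, REL, NFKB1 and TNFAIP3, were called lower in PD than in GS (edgeR on the 9 libraries of 0h, adjusted p alone). Of all 16477 genes tested, 40.6% were called at 0h and 19.3% were called lower in PD, so a difference at 0h was common. REL was lower by log2 -1.87 ± 0.26 (adjusted p = 0.000209), NFKB1 by -1.05 ± 0.18 (adjusted p = 0.000949) and TNFAIP3 by -1.14 ± 0.31 (adjusted p = 0.0116). NFKBIZ was at -0.95 ± 0.40 and missed the threshold (edgeR adjusted p = 0.0731), and the fits of NFKBIA and NFKBIE were above 0 and not called. In DESeq2 NFKBIZ passed as well (adjusted p = 0.0408), which made 4 members, with 7518 of all 16477 genes called. At 6h only REL was called (log2 -1.35 ± 0.38, edgeR adjusted p = 0.0232), where 24.3% of genes were called and 11.4% were lower. That call was lost without PD pig 2, 3 or 5 (log2 -1.32, -1.23 and -1.19, edgeR adjusted p = 0.0763, 0.058 and 0.0624). At 12h no member was called (1 had an unadjusted p under 0.05, and DESeq2 called 0), against 20.1% of genes called and 9.49% lower. TNFAIP3 in PD thus started lower and stood at log2 0.26 ± 0.45 and -0.47 ± 0.59 against GS at 6h and 12h (adjusted p = 0.697 and 0.607).

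The 4 members with the lowest fitted difference at 0h are those with the lowest exon GC content and also the longest exons in total: REL with 40.6%, NFKBIZ with 45.9%, NFKB1 with 50.2% and TNFAIP3 with 51.5%, against 60.4% to 65.7% in the other 5. Their exon lengths were 16827, 5912, 3311 and 7899 bases in the same order, against 945 to 3299 in the other 5. Over all genes the 20% of genes with the lowest GC content had a median difference at 0h of 0.33 and the 20% with the highest one of -0.19. Low-GC genes as a whole thus stood higher in PD, whereas these 4 members stood lower. With the trends in GC content and length removed together, so that the part of each cannot be told apart, an alternative added after the data had been seen, TNFAIP3 stood at -0.49 and was not called (edgeR adjusted p = 0.184), while REL (-1.46) and NFKB1 (-0.9995) were still called.

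Other genes of the pathway were taken from lists by role. Of 3 other IkB genes, NFKBIB and BCL3 were called higher in GS at 12h (log2 1.26 ± 0.27 and 1.88 ± 0.24, edgeR adjusted p = 0.0032 and 0.00018). BCL3, a nuclear partner of p50 and p52, was called in PD at 12h too (2.13 ± 0.50, adjusted p = 0.0343). Over all genes tested, 6.99% in GS and 3.22% in PD were called higher at 12h, and 1 call in a list of 13 to 17 genes is near these shares. Of 17 genes of the IKK complex and upstream kinases, 1 was called higher at 12h in each group, MAP3K8, the kinase Tpl2 that p105 holds inactive (log2 1.58 ± 0.32 in GS and 1.89 ± 0.42 in PD, edgeR adjusted p = 0.00244 and 0.0304). Of 13 adaptors and TRAF proteins, TICAM1, the TLR adaptor TRIF, was called in GS at 12h (1.04 ± 0.30, adjusted p = 0.0158) and TRAF3, a brake on the slower route, in PD (1.33 ± 0.35, adjusted p = 0.0486). The median log2 change at 12h was 0.42 in GS and 0.54 in PD over the kinases, and 0.19 and 0.25 over the adaptors, below the members' 0.98 and 1.69. Over the 3 other IkB genes it was 1.26 in GS and 2.13 in PD, above the members. None of these lists had a gene called lower in either group against 0h.

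Among 17 ubiquitin ligases, deubiquitinases and partners, the 12h comparison called 3 higher in the GS pigs, 2 higher in the PD pigs and 0 lower, beside 6.99% and 3.22% of all genes called higher. TNIP1, which works with A20, rose in both groups (log2 1.41 ± 0.22 in GS and 2.55 ± 0.48 in PD, edgeR adjusted p = 0.000588 and 0.0209). ZC3H12A, an RNase that degrades inflammatory messengers, rose as well (1.51 ± 0.33 and 2.34 ± 0.58, adjusted p = 0.00336 and 0.0414), and PELI1, a ubiquitin ligase of TLR signaling, was called in GS (1.49 ± 0.19, adjusted p = 0.000198). The row that joins BIRC2 and BIRC3 was at 301 to 538 CPM in GS at 0h (median 403) and 503 to 1000 CPM at 12h (median 972). In PD it was at 303 to 854 CPM (median 629) and then at 604 to 4600 CPM (median 2290). Its fitted changes at 12h were log2 0.94 ± 0.23 in GS and 1.88 ± 0.66 in PD (edgeR adjusted p = 0.007 and 0.112), neither called. Its level was called higher in PD than in GS at 6h and 12h (log2 1.65 ± 0.40 and 1.59 ± 0.49, edgeR adjusted p = 0.011 and 0.0397). At these times 24.3% and 20.1% of all genes were called between the groups in either direction. The row was at log2 0.611 ± 0.315 already at 0h (edgeR adjusted p = 0.142). Its change from 0h was not called different between the groups at 6h or 12h (edgeR adjusted p = 0.783 and 0.921).

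Of 28 textbook target genes in the table, 8 were called higher at 6h and 9 at 12h in GS, and 4 and 15 in PD, with 0 lower. The shares of all genes called higher were 5.5% and 6.99% in GS and 0.135% and 3.22% in PD. Their median log2 change was 0.63 and 0.74 in GS and 1.84 and 1.92 in PD. CSF3, the granulocyte growth factor, rose in both groups at 12h (log2 2.85 ± 0.40 in GS and 4.53 ± 1.04 in PD, edgeR adjusted p = 0.000308 and 0.0326), as did IL6 (2.13 ± 0.46 and 4.51 ± 0.47, adjusted p = 0.00357 and 0.0054). PTX3, a soluble pattern recognition protein, rose by 2.31 ± 0.21 in GS (adjusted p = 4.48e-05), and SELE, the endothelial selectin, by 4.68 ± 1.20 in PD (adjusted p = 0.0441). In the interaction fit 0 of the 28 were called at 6h or 12h in edgeR, as was no other gene, so a difference in the change from 0h was not shown. The fitted difference was above 0 for 23 of the 28 at 6h and 26 at 12h, with medians of 0.95 and 1.05 against 0.02 and -0.01 over all genes. In level, 5 of the 28 were called higher and 3 lower in PD than in GS at 0h, 11 and 0 at 6h, and 10 and 0 at 12h, where 40.6%, 24.3% and 20.1% of all genes were called in either direction. Called higher in PD were 3507 of 16477 genes at 0h, 2081 of 16201 at 6h and 1748 of 16431 at 12h.

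**Figure D4:**
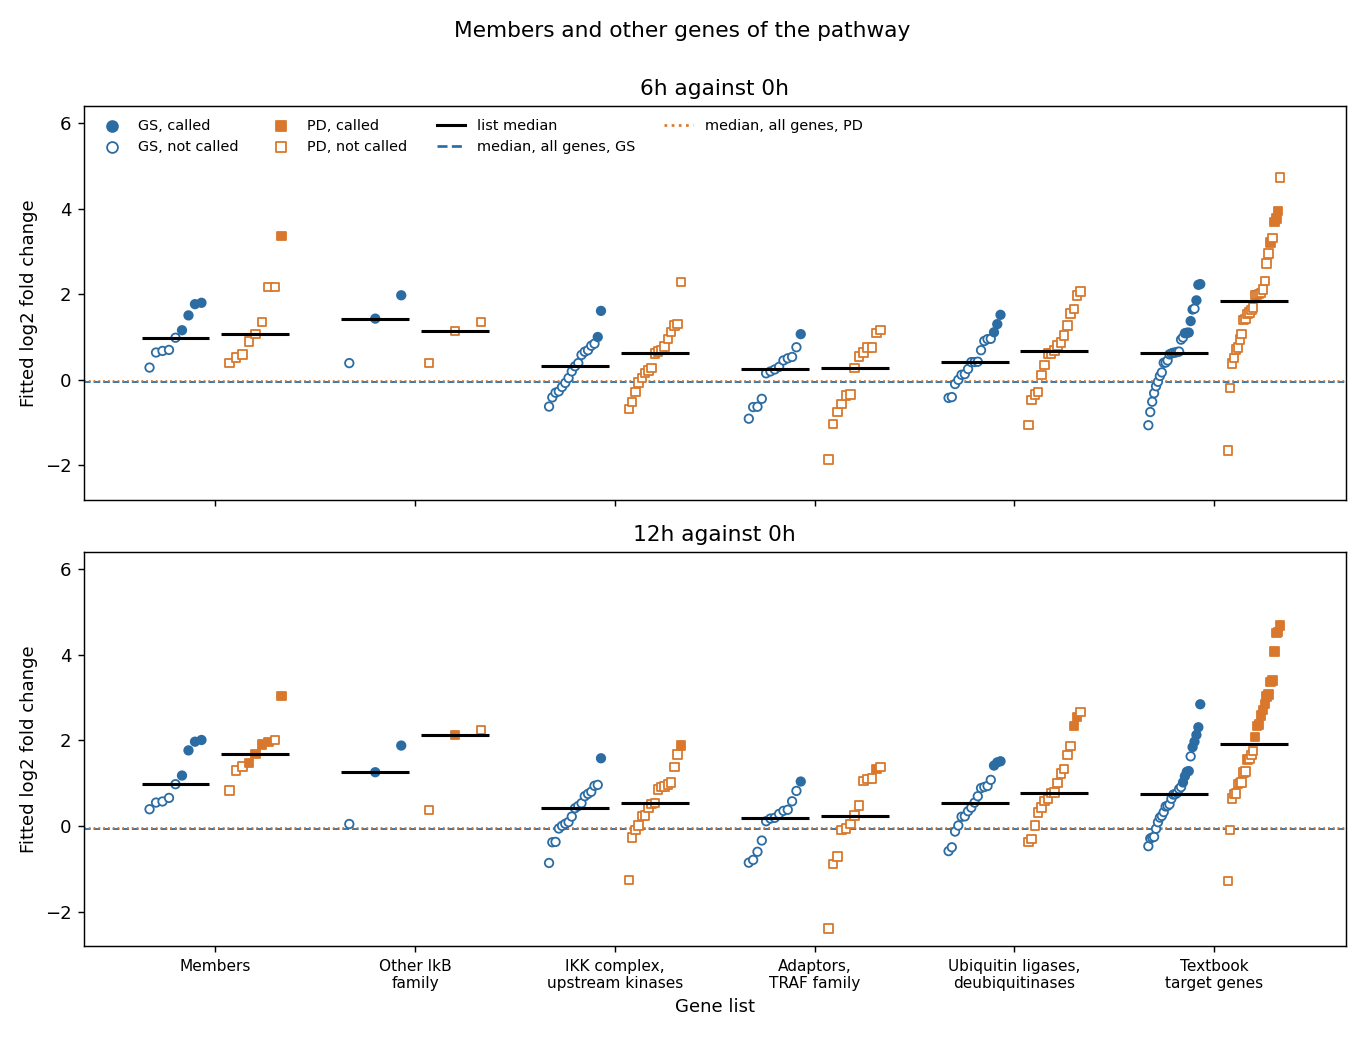
Fitted log2 fold change against 0h of the members and of the other pathway lists at 6h (top) and 12h (bottom), 1 point per gene, circles for GS and squares for PD, filled where called, with black bars for list medians and coloured lines for the median of all genes. At 12h the member medians (0.98 for GS, 1.69 for PD) lie above those of the kinases and adaptors, and the target genes reach 2.85 in GS and 4.68 in PD. The 12h medians are 1.26 and 2.13 over the 3 other IkB genes, above the members, and 0.74 and 1.92 over the target genes.

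Genes whose levels most resembled the members were ranked by Pearson r with the mean member profile over 27 libraries, each gene centred on its group mean. The first 5 were IRF1 (0.959), PIM1 (0.945), ICAM1 (0.941), CDKN1A (0.937) and RNF19B (0.937). IRF1 is a transcription factor of interferon responses and ICAM1 an adhesion molecule for leukocytes, and both are on the list of target genes. Their log2 changes at 12h were 1.17 and 1.84 in GS and 2.86 and 2.59 in PD. Against the same profile, to which they contribute, the members ranged from 0.706 for NFKB1 and 0.718 for NFKBIZ to 0.936 for NFKB2 and 0.937 for NFKBIA.

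Few markers of immune cells were called. Of all genes, 1611 of 18594 in GS and 429 of 15545 in PD were called lower at 12h, as a background to the lymphocyte markers. Of 6 macrophage and monocyte markers, CD14 was called higher in GS at both times (log2 1.28 at 6h and 1.596 at 12h) and 0 in PD. Only 3 of the 6 had a positive fitted change in GS at either time, with list medians of 0.08 and 0.05. At 0h the list summed to 1750 to 3380 CPM over the GS pigs, against 1330 to 1540 CPM over the PD pigs, and at 12h to 2020 to 3370 CPM against 1090 to 2490 CPM. The 5 neutrophil markers in the table summed to 150 to 395 CPM at 0h and 157 to 434 CPM at 12h over the GS pigs. In PD pigs 2, 3, 4 and 5 they summed to 734, 690, 1250 and 626 CPM at 0h, to 1120, 325, 340 and 234 CPM at 6h and to 1520, 328, 542 and 253 CPM at 12h, so that the sum was lower at both later times in 3 of 4 pigs and higher in pig 2. All 5 had a fitted change below 0 in PD at 6h and 12h (medians -0.72 and -0.78), and 0 was called by edgeR. In GS, 1 of the 5 had a change above 0 at 6h and 4 at 12h (medians -0.30 and 0.31), and 0 was called. Of 6 tested T and NK cell markers, CD2 was called lower in GS at 12h (log2 -1.20) and CD3D and LCK in PD (-1.58 and -1.34). Of 5 B cell markers, MS4A1 and PAX5 were called lower in GS at both times, and MS4A1 in PD at 12h (-2.39). The markers named here were chosen after their values had been seen. CD3G was at 0 in at least 1 library of both groups. The 3 erythrocyte markers in the table summed to 0.799 to 10.6 CPM in the GS pigs at 0h and to 0.492 to 4.75 CPM at 12h, and in the PD pigs to 51.5 to 236 CPM and then 7.78 to 359 CPM. Their median fitted change was -1.15 at 6h and -1.50 at 12h in GS, where 1 of 3 was called lower each time, and -1.65 and -1.90 in PD, where 0 of 2 tested was called. The part of cell composition in the members' increase and in the differences at 0h was not tested.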

How the data were processed

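Values start from the deposited table of raw counts per gene, which the authors made, per the labels and their processing notes, with bcl2fastq 2.2.18.12, cutadapt 1.15, TopHat2 2.0.14 and featureCounts (Subread 1.6.0) on Sscrofa11.1 and Ensembl annotation. The counts carry no molecular identifiers, and strand and multi-mapping settings are not given in the sources used here. All 27 libraries were used, with no column left out.

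Each group was fitted in edgeR 4.0.16 (R 4.3.3, limma 3.58.1) with filterByExpr, TMM and robust quasi-likelihood F tests, two-sided, over all genes that passed, with the pig as block because the biopsies of a pig come from the same lung. Libraries of the same pig correlated at a mean residual r of 0.526 in GS and 0.109 in PD (-0.155 and -0.121 between pigs). Adjusted p is Benjamini-Hochberg over all genes tested. Levels between groups used the 9 libraries of a time. The authors' independent hypothesis weighting was not used. Per-pig changes add 0.5 to each count, and profiles a prior count of 2. GC content comes from RefSeq exons. DESeq2 1.42.0 gave rlog values and an alternative. Scripts were tested on simulated data.

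Members and lists were chosen with earlier results of these data known. All members are described, and list genes named are the 3 with the largest called change at 12h in each group. The upstream window of 1 member is not reported here.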

Additional observations from a re-analysis of the deposited data

How the results depend on the processing

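Counts of members called depended on the setting mainly in PD. Beside the 5 calls in PD at 12h, 8 members were called with DESeq2, in a fit of all 27 libraries, with the GC and length trend removed or without the 12h library of pig 2, 2 without the 0h library of pig 4, and 0 with only the 2 time points compared. Calls over all genes moved the same way, from 930 to 2560, 3300, 2327, 4161, 457 and 4 in that order. With each PD pig left out the count ranged from 0 to 8. Beside the 1 call in PD at 6h, DESeq2 called 4, and 3 were called with no filter on low counts, with no replicate block, in a fit of all 27 libraries, with only the 2 time points, with the GC and length trend removed or without the 12h library of pig 2, and leaving out each pig gave 0 to 1. Calls over all genes went from 22 to 428 with DESeq2, to 100 to 479 under the settings that called 3, and to 0 to 98 with each pig left out. In GS, 7 were called at 6h and 7 at 12h with no fold change threshold, and also 7 and 7 without pigs 9 and 17, and leaving out each pig in turn gave 2 to 6 at 6h. With no replicate block, 4 members were called in GS at 6h, 4 at 12h and 6 in PD at 12h. Calls over all genes were then 1123, 1896 and 1460, against 2057, 2911 and 930 with the block. Without the block, NFKB1, NFKB2 and RELA in GS missed the adjusted p at 6h (edgeR, 0.0516, 0.11 and 0.166). They missed it at 12h too (0.0727, 0.0704 and 0.149).

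Between the groups, members called at the level of 6h ranged from 0 to 3 with each pig left out and came to 4 without GS pigs 9 and 17. Calls over all genes at 6h were 3933 of 16201 with all pigs and 1846 to 4332 with each pig left out. Without GS pigs 9 and 17 they were 5674 of 15897. At 12h, 1 member was called without those pigs and 1 with the GC and length trend removed, where 3269 of 15543 and 2887 of 13444 genes were called. The Wilcoxon test at 6h gave 1 member on log2 CPM, 1 as an exact permutation of means, and 0 to 2 with each pig left out, and at 12h 0 to 1. Signs turned in few places. Without GS pig 55 the 6h change of NFKBIZ in GS was -0.029, and up to 0.66 without pig 9. Without GS pigs 9 and 17, TNFAIP3 stood at -0.025 in the PD against GS comparison of the 12h change and at -0.19 in the 6h level. NFKB1 at the 12h level was 0.13 without PD pig 2 or its 12h library (-0.31 without pig 5), and TNFAIP3 there was 0.039 with the GC trend removed. The cause of each was not tested. The GC fit was not used for GS or for the changes between groups, since only 75.6% and 77.8% of the genes tested have a RefSeq model. Settings without a pig pool the spread over the pigs that remain. The lowest count of any member in a library was 276. With every library thinned to the smallest total, 3, 1 and 0 members were called between the groups at 0h, 6h and 12h, the same counts as without thinning.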
